A study of Mus musculus with 2 samples.

Results

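Mitotic tumour epithelial cells are the dividing fraction of the epithelial cells in mouse intestinal tumours, here 594 of 16168 deposited cell barcodes: 373 of 9445 in the WT library and 221 of 6723 in the cKO library. WT tumours came from Mtch2fl/fl mice, whose Mtch2 alleles are flanked by loxP sites and stay intact because no Cre is present. cKO tumours came from Mtch2fl/fl VilCre mice, in which the Villin promoter drives Cre recombinase in the intestinal epithelium, so that Mtch2 is deleted there and not in cells that lack Cre. Mice of both genotypes had received AOM-DSS, the carcinogen azoxymethane followed by the colitis-inducing dextran sulfate sodium. Tumours were pooled within each genotype, dissociated with trypsin and profiled by droplet single-cell RNA sequencing, so 1 library stands for each genotype. The sources used here do not give the age or number of the mice. With 1 library on each side there is no replicate check, no test was possible, and every difference below is a difference between these 2 libraries. Intervals are 95% and cover counting error only.

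The cells were chosen by their own expression. A barcode needed at least 500 detected genes, at least 3000 unique molecular identifiers (UMIs, each standing for 1 captured RNA molecule) and at most 25% mitochondrial UMIs, which left 4062 WT and 3335 cKO barcodes. Levels per cell are UMIs per 10000 UMIs of that cell (CP10k). An epithelial gate took cells in which Epcam, Krt8, Krt18 and Cldn7, genes of epithelial adhesion, keratins and tight junctions, summed to at least 8 CP10k and Ptprc, the leukocyte gene for CD45, was below 1 CP10k. It held 3041 WT and 1749 cKO cells. Among these, the mitotic cells were those in which Cenpf, Top2a, Mki67, Plk1, Ube2c, Tpx2, Ccna2, Hmmr, Cdk1 and Ccnb1 summed to at least 8 CP10k. The other 2668 WT and 1528 cKO gated cells serve for comparison.

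A cell that divides first copies its DNA in S phase, then passes G2 and enters mitosis, in which the chromosomes condense, attach to the spindle and separate before cytokinesis splits the cell. The genes for these late steps are switched on together shortly before they are needed: the DREAM complex holds them silent in resting cells, and B-MYB and FOXM1 activate them in G2, largely through CCAAT boxes bound by NF-Y and through the cell cycle genes homology region, or CHR. E2F4, a transcription factor named in the title of the study, is a repressor subunit of DREAM, and in the healthy gut the dividing cells are the stem and transit-amplifying cells of the crypt.

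Most promoters of the score genes held both motifs, and 4 are printed as examples from genes whose levels define the cells. The 4 were picked by hand and not by a rule. Top2a, Mki67 and Cdk1 hold both motifs in the bases shown, and Hmmr holds CCAAT boxes there but no CHR match. They are the 150 bases before the transcription start, on the strand of the gene, from RefSeq on GRCm38.p6. Capitals mark CCAAT or its reverse ATTGG, and the CHR matches TTTGAA, its reverse TTCAAA, and TTCGAA.
Top2a (chr11:99024190-99024339, minus strand): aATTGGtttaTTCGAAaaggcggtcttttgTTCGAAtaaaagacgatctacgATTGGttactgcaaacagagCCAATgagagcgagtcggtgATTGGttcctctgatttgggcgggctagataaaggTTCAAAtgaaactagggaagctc
Mki67 (chr7:135716380-135716529, minus strand): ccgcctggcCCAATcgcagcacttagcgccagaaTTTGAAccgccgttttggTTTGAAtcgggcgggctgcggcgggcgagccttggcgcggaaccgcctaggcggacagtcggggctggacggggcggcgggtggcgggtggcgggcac
Cdk1 (chr10:69352913-69353062, minus strand): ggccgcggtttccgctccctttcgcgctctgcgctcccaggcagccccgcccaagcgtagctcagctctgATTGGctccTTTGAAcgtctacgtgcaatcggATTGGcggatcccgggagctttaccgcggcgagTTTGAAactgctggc
Hmmr (chr11:40733438-40733587, minus strand): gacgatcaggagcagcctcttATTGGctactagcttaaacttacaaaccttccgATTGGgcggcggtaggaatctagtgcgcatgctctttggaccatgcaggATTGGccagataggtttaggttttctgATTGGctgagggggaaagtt
The table of RefSeq promoters held 8 of the 10 score genes. In the whole window of 300 bases, 250 before to 50 after the start and read on both strands, CCAAT was present in 8 of the 8 promoters (100%) and a CHR match in 7 (87.5%), all but Ccnb1. In the 150 bases before the start, Cenpf, Plk1, Hmmr and Ccnb1 had no CHR match. Of all 27025 genes of the table, 37.9% had CCAAT, 19.4% a CHR match and 7.70% both. Among 81 promoters of G2 and mitosis genes outside the score, 64.2% held CCAAT and 65.4% a CHR match. Among 48 promoters of DNA replication genes, 64.6% held CCAAT but 18.75% a CHR match, close to the share over all genes. The E2F letters TTTCCCGC or TTTGGCGC were in 0 of 8 score promoters, in 25% of the replication promoters and in 1.63% of all. A base can belong to matches of more than 1 motif. A match is a description of the sequence, not a bound site, and a window without one says nothing about a factor.

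The share of mitotic cells among gated epithelial cells was nearly the same in both libraries: 12.3% (exact Clopper-Pearson interval 11.1 to 13.5) in WT and 12.6% (11.1 to 14.3) in cKO. With every gated cell thinned to 3000 UMIs the expected shares were 12.3% and 12.1%. A thinned cell passed with at least 3 score UMIs, a stricter limit than 8 CP10k. Of the mitotic cells, 85.1% in WT and 84.7% in cKO were expected to pass, so part of these shares came from other gated cells. The score formed a continuous range, with no gap at the threshold, so the cells are a range of a score and not a separate type. In the range from 6 to 8 CP10k, just outside, lay 106 WT and 35 cKO cells, and from 8 to 10 CP10k, just inside, lay 70 and 35. A score of 0 was found in 30.5% of WT and 31.96% of cKO gated cells. Among mitotic cells the score had a median of 17.3 CP10k in WT and 17.4 CP10k in cKO, with highest values of 76.0 and 83.1. As a background for free RNA, cells rich in S100a8 and S100a9 (at least 100 CP10k together), a neutrophil profile that should not divide, reached the score in 0 of 21 WT cells, which allows a share of up to 14.3% by a limit of 3 counts (exact Clopper-Pearson upper bound 16.1%), and in 2 of 167 cKO cells (1.20%). Their median depths were 5293 and 5398 UMIs. The cKO share in epithelial cells was above this background, and the 21 WT cells were too few to set one.

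**Figure D1:**
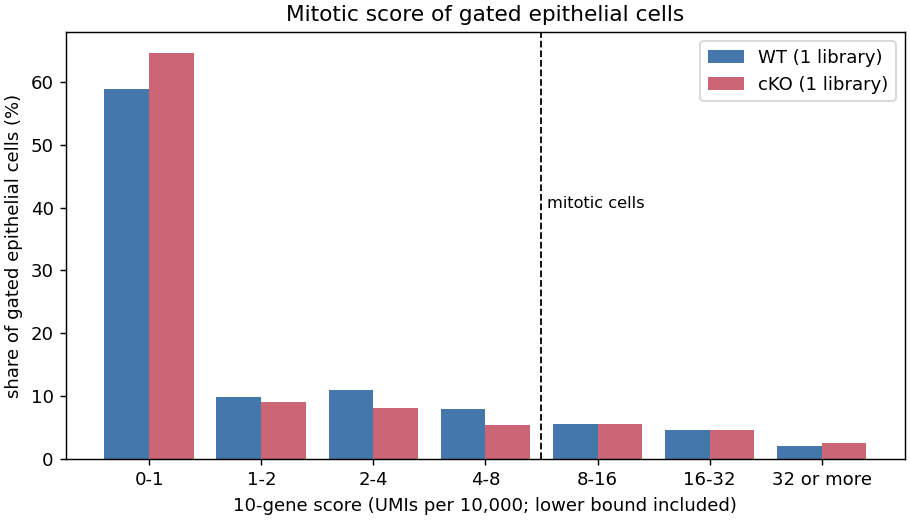
Share of gated epithelial cells (vertical axis, percent) in each range of the 10-gene mitotic score (horizontal axis, UMIs per 10,000), for the WT and cKO libraries, 1 bar per library. The 3 ranges right of the dashed line are the mitotic cells, which make up 12.3% of WT and 12.6% of cKO gated cells, and the range from 4 to 8 holds 7.96% and 5.43%.

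In cKO the mitotic cells were deeper than the other gated cells, and in WT only their upper end was. Their median was 22884 UMIs in WT, beside 23540.5 in the other gated cells, and 61207 UMIs in cKO, beside 34455. Cells with 80000 UMIs or more made up 15.5% of WT mitotic cells against 6.93% of the other gated cells, and 32.1% against 8.84% in cKO. Mitotic cells therefore held 15.5% of all UMIs of gated cells in WT and 19.9% in cKO. Their share depended on the depth of the cells. It was 12.6% in WT and 8.59% in cKO among cells of 3000 to 10000 UMIs, 7.78% and 8.32% from 10000 to 40000, and 16.9% and 18.1% at 40000 or more. Shallow and deep mitotic cells both had high levels of late cell cycle genes: 98 G2 and mitosis genes outside the score summed to 6079 UMIs per 1000000 UMIs (CPM) in WT mitotic cells of 3000 to 10000 UMIs and to 7689 CPM in those of 40000 or more, against 1636 and 1562 CPM in other gated cells of the same depths. In cKO these sums were 5763 and 7579 CPM against 1461 and 1586 CPM.

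**Figure D2:**
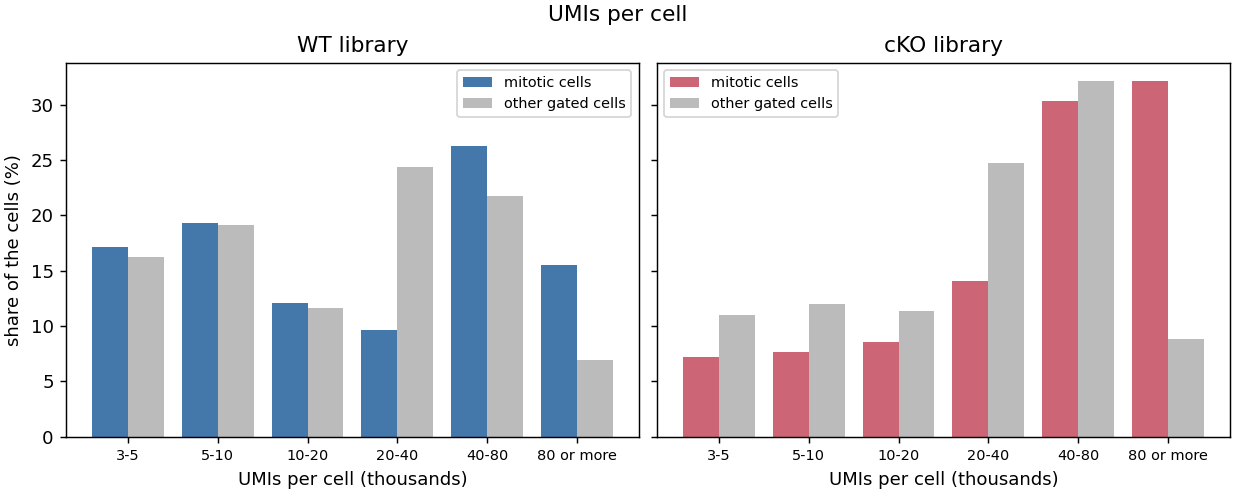
Share of cells (vertical axis, percent) by UMIs per cell (horizontal axis, in units of 1000 UMIs), for mitotic cells (coloured) and other gated epithelial cells (grey), with WT on the left and cKO on the right. The range of 80000 UMIs or more holds 15.5% of WT and 32.1% of cKO mitotic cells.

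Doublets, droplets with 2 cells, were not removed. Scrublet, which scores barcodes against simulated doublets, marked 7 WT and 7 cKO mitotic cells (1.88% and 3.17%), beside 2.81% and 2.49% of the other gated cells. The libraries shared 22 barcode sequences, and 1 mitotic cell of each library carried one of these. The mitotic cells had the epithelial profile of the gate: 10 pan-epithelial genes outside the gate summed to 5065 CPM (WT) and 4506 CPM (cKO), against 448 and 375 CPM in Ptprc-positive cells. Markers of other cells were present as well, those of immune cells below their levels in Ptprc-positive cells. There, in WT and cKO, plasma cell markers summed to 14240.5 and 7142.8 CPM and neutrophil markers to 2833 and 13301.8 CPM. Macrophage markers summed there to 12831.8 and 8005 CPM and mast cell markers to 5777 and 1541 CPM. The sums in mitotic cells follow, WT first. T cell markers summed to 10.5 and 8.74 CPM, macrophage markers to 71.1 and 57.2 CPM, neutrophil markers to 72.4 and 182 CPM, plasma cell markers to 341 and 669 CPM, mast cell markers to 116 and 33.1 CPM, B cell markers to 1.61 and 6.56 CPM, fibroblast markers to 11.7 and 6.76 CPM, endothelial markers to 27.6 and 17.8 CPM, and erythroid markers to 71.9 and 22.3 CPM. In cKO 1 cell held 54.2% of the neutrophil marker UMIs and 1 cell 53.5% of the plasma cell marker UMIs. In WT 1 cell held 41.9% of the neutrophil marker UMIs. For mast cell markers 1 cell held 30.8% in WT and 1 cell 42.9% in cKO. By Xist against 4 Y-linked genes, 141 WT and 125 cKO mitotic cells were assigned male and 107 and 28 female. The libraries thus differ in assigned sex (43.1% and 18.3% female among assigned cells). Another 125 WT and 68 cKO mitotic cells were unassigned, 97 and 51 with UMIs of both kinds and 28 and 17 with neither. How far free RNA or doublets affect the assignment was not tested. Depth, free RNA and sex moved with the genotype, and their part in the differences below was not tested.

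Mtch2, which encodes a protein of the outer mitochondrial membrane and is the targeted gene, was lower in the mitotic cells of the cKO library. It stood at 110.8 CPM (exact Poisson interval 105.5 to 116.3) in WT from 1653 UMIs and at 24.6 CPM (22.1 to 27.3) in cKO from 360 UMIs, a log2 ratio of -2.17 (-2.34 to -2.01). The other gated cells had 90.05 and 23.8 CPM, and Ptprc-positive cells, which are leukocytes by this gene, 53.5 and 41.8 CPM. A UMI of Mtch2 was found in 70.0% of WT and 68.3% of cKO mitotic cells, but the cKO cells were deeper. With the cells of at least 10000 UMIs thinned to 10000, which left out 136 WT and 33 cKO cells, the shares were 62.4% and 21.6%, and in Ptprc-positive cells 39.6% and 31.96%. The remaining cKO level hardly differed across the score, with 24.2, 25.4 and 23.9 CPM of Mtch2 in cells scoring 8 to 16, 16 to 32 and 32 or more. It was 37.8 CPM in the cKO mitotic cells of 3000 to 10000 UMIs, and 23.1 and 24.5 CPM in those of 10000 to 40000 and of 40000 or more. Mtch2 (ENSMUSG00000027282) spans positions 90847155 to 90866810 of chromosome 2 on the plus strand (GRCm38). The sources used here do not say which exons are floxed, so a transcript that lost an exon may still be counted.

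The 10 score genes were at almost the same level in the mitotic cells of both libraries. They chose the cells, so their levels are a description. Top2a, the topoisomerase that untangles sister chromatids, was the most abundant by UMIs, at 550.1 CPM (WT) and 522 CPM (cKO). Mki67, which coats mitotic chromosomes, stood at 383 and 386 CPM, and Ube2c, the ubiquitin-conjugating enzyme of the anaphase-promoting complex, at 302 and 313 CPM. Cenpf, a kinetochore protein, stood at 246 and 249 CPM, and Tpx2, which builds spindle microtubules and activates Aurora A, at 165 and 169 CPM. Cdk1, the kinase that drives entry into mitosis, had 157 and 161 CPM, and its partners Ccna2 and Ccnb1, cyclins A2 and B1, had 117 and 121 CPM and 89.2 and 89.8 CPM. Hmmr, a spindle protein, had 111 and 112 CPM. Plk1, the polo-like kinase of spindle assembly and cytokinesis, had 82.8 and 74.9 CPM, the largest difference of the 10, with a log2 ratio of -0.14 (-0.26 to -0.03). None reached 1.5-fold, which 2.89% of all measured genes did. Over all 9435 genes measured, which means at 10 CPM or more in either library, 0.901% were 1.5-fold or more higher in cKO and 1.99% lower, and the median log2 ratio was -0.03.

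**Figure D3:**
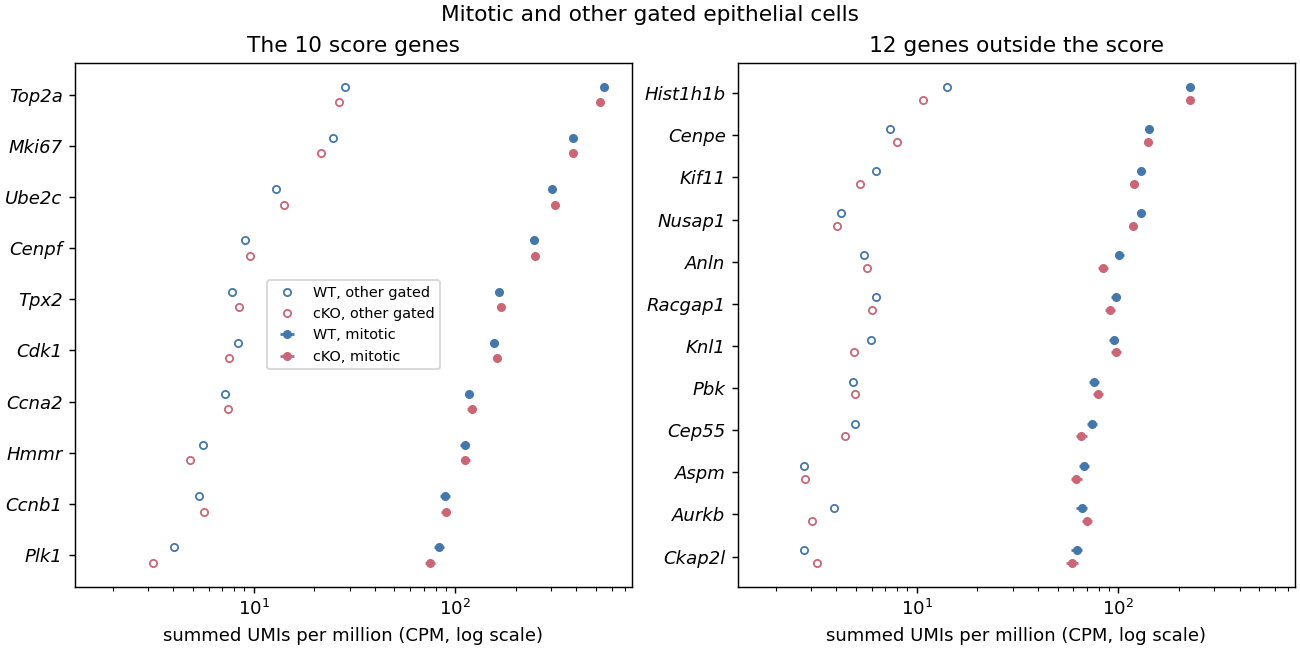
Summed levels (horizontal axis, CPM, log scale) of the 10 score genes (left) and of 12 genes outside the score (right), in mitotic cells (filled, with exact Poisson 95% intervals) and in other gated cells (open), for WT and cKO. The 12 are those with at least 60 CPM in WT among the 15 genes furthest above the other gated cells. Filled points of the libraries lie close together, and each lies at least 14.8-fold above its open point in the right panel. That distance follows from the choice of genes.

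Compared with the other gated cells, mitotic cells had higher levels of most late cell cycle genes and not only of those in the score. Of 98 G2 and mitosis genes that the score did not use, 89 were 1.5-fold or more higher in mitotic cells of both libraries, where 9.61% of all 9498 genes compared were. In single libraries 11% of genes in WT and 11.9% in cKO were that much higher. Their sum was 7576 CPM in WT mitotic cells against 1527 CPM, and 7508 against 1538 CPM in cKO. Genes furthest above the other cells in both libraries included Nusap1, Aspm, Kif11, Ckap2l, Sgo2a, Cenpe, Aurkb, Hist1h1b, Knl1, Pbk, Melk, Racgap1, Cep55 and Anln. Nusap1, which bundles spindle microtubules, stood at 129.6 CPM against 4.19 CPM in WT and 119 against 4.05 CPM in cKO, log2 ratios of 4.95 and 4.87. Cenpe, the kinesin that moves chromosomes to the spindle equator, stood at 143 against 7.35 CPM and 140.4 against 7.99 CPM. Aurkb, the kinase of the chromosomal passenger complex, which corrects wrong attachments, stood at 66.0 against 3.90 CPM and 70.01 against 3.01 CPM. Anln, the scaffold of the cytokinetic ring, stood at 101 against 5.45 CPM and 84.3 against 5.68 CPM. These genes were seen in many cells, Nusap1 in 65.7% of WT and 76.0% of cKO mitotic cells.

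Genes of DNA replication were also higher in mitotic cells, less steeply. Of 56 measured genes of origin licensing, replication forks and nucleotide supply, 54 were 1.5-fold or more higher in both libraries. Of all genes compared, 9.61% were. They summed to 3206 CPM against 1174 CPM in WT and to 3538 against 1275 CPM in cKO. Pcna, the sliding clamp of the fork, stood at 199.7 and 218 CPM in WT and cKO mitotic cells, 1.20 and 1.33 higher on the log2 scale than in other gated cells. Rrm2, the regulated subunit of ribonucleotide reductase, was 2.93 and 3.04 higher. In 7.77% of WT and 10.4% of cKO mitotic cells the replication genes summed to more than the G2 and mitosis genes. The phase of single cells was not measured. The other gated cells included 242 WT and 95 cKO cells scoring 4 to 8 CP10k, so dividing cells may be among them. In these, replication genes summed to 2450 and 2610.5 CPM, and the 98 G2 and mitosis genes to 3303 and 3554 CPM. Below 4 CP10k the sums were 1061 and 1165 CPM, and 1367 and 1369 CPM.

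Many repair genes and some regulators of the programme were also higher in mitotic cells. The share over all genes compared was 9.61% at 1.5-fold or more in both libraries. Of 24 measured checkpoint and repair genes, 19 were 1.5-fold or more higher in mitotic cells of both libraries, among them Brca1, which acts in repair by recombination, by 2.66 in WT and 2.76 in cKO on the log2 scale. Of 20 E2F, pocket protein and DREAM genes, 11 were. Foxm1, the activator of G2 genes, was 3.65 and 3.29 higher, and E2f7 and E2f8, repressors that end the E2F wave, were 3.07 and 2.97 and 3.20 and 3.07 higher. E2f4 itself differed by 0.46 and 0.55 and so stayed below 1.5-fold. Of 25 genes of ribosome biogenesis, 15 passed 1.5-fold in both libraries, with medians of 0.67 and 0.75.

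Genes of differentiation and of the response to interferon were lower in mitotic cells, in a background of 7.09% of genes 1.5-fold or more lower in both libraries, 9.2% in WT alone and 11% in cKO alone. This held for 8 of 17 absorptive genes compared, 14 of 35 interferon and MHC class I genes and 9 of 27 Wnt and stem cell genes. Krt20, a keratin of mature surface cells, stood 1.36 lower in WT on the log2 scale and 1.91 lower in cKO, at 67.4 and 42.7 CPM. Of the 15 genes furthest below the other cells, 5 were alpha-defensins (Defa21, Defa22, Defa24, Defa17 and Defa30), antimicrobial peptides of Paneth cells. They are near-identical copies whose counts may be split between genes, so their values are uncertain. The others included Saa1, Ifit1, Mdga2, Pnliprp2, Pcdh7, Clca4b, Ifit1bl1, Inpp4b and Ceacam20. Saa1, an acute phase protein, stood at 47.3 against 228 CPM in WT and 44.5 against 453 CPM in cKO. Ifit1, an interferon-induced gene that binds foreign RNA, stood at 16.7 against 125 CPM and 21.1 against 92.4 CPM. Lgr5, the receptor that marks crypt stem cells, stood at 132 CPM (WT) and 108 CPM (cKO) mitotic cells, lower than in the other gated cells by 0.77 on the log2 scale in each. Ascl2, a transcription factor of stem cells, was the other way, at 0.89 and 0.51 higher. Genes of the mitochondrial genome were lower in 12 of 13 cases in WT and in 13 of 13 in cKO, with median log2 ratios of -0.18 and -0.34, where 49.8% of all genes in WT and 49.4% in cKO were higher in mitotic cells.

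Within the mitotic cells, the other G2 and mitosis genes rose with the score more than the replication genes did. The score chose the cells, and G2 and mitosis genes are switched on together, so this is a description. The score and the sum of the other G2 and mitosis genes had a Spearman correlation of 0.79 over 373 WT cells and 0.78 over 221 cKO cells. For the score and the replication sum it was 0.13 and 0.20, and for the G2 and mitosis sum and the replication sum 0.31 and 0.43. These describe cells of 1 library each, which share depth. In WT the 98 genes summed to 5190.0 CPM in the 170 cells scoring 8 to 16, to 7819 CPM in the 139 cells scoring 16 to 32 and to 11818 CPM in the 64 cells scoring 32 or more. In cKO the sums were 5307, 7567 and 11140.1 CPM in 98, 79 and 44 cells. The replication sum stayed between 3141 and 3303 CPM in WT and between 3505 and 3645 CPM in cKO. Single replication and G1/S genes differed in their course over the score. Cdc6, which loads the replicative helicase, went from 18.6 to 11.4 and 6.78 CPM in WT and from 22.0 to 16.7 and 6.79 CPM in cKO. Ccne2, cyclin E2, went from 30.6 to 18.1 and 10.7 CPM and from 31.7 to 16.9 and 8.27 CPM. Tyms, thymidylate synthase, took the other course, from 85.0 to 95.7 and 118 CPM and from 84.7 to 106 and 149 CPM. Mcm6, a helicase subunit, had no single direction, with 80.1, 90.1 and 69.9 CPM in WT and 102, 92.3 and 93.3 CPM in cKO. Among the G2 and mitosis genes, Cenpe went from 74.6 to 147 and 269 CPM in WT and from 76.2 to 133 and 261 CPM in cKO. Fzr1, the activator of the anaphase-promoting complex at mitotic exit, went from 20.02 to 33.1 and 54.6 CPM and from 18.3 to 30.8 and 47.2 CPM.

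**Figure D4:**
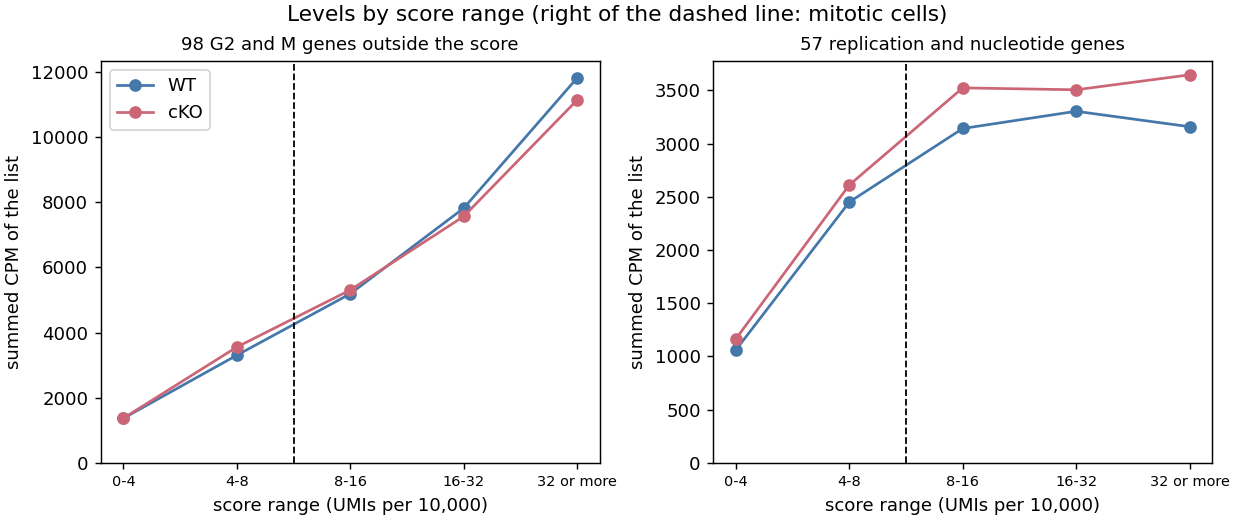
Summed CPM (vertical axis, from 0) of 98 G2 and mitosis genes outside the score (left) and 57 replication and nucleotide genes (right) by range of the score (horizontal axis, UMIs per 10,000), for WT and cKO, with the mitotic cells right of the dashed line. The left sums reach 11818 CPM (WT) and 11140.1 CPM (cKO) in the highest range, and the right sums stay between 3141 and 3645 CPM over the mitotic ranges.

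Between the libraries, the G2 and mitosis genes outside the score differed little. Of 98 measured genes, 38 were higher in cKO and 60 lower, beside 43.8% higher among all genes, and the median log2 ratio was -0.018, with the sign turned to 0.0088 by median-of-ratios size factors and to 0.011 by totals without mitochondrial, ribosomal, haemoglobin and immunoglobulin genes. The gene past 1.5-fold was Psrc1, a microtubule-binding protein, at 12.9 CPM (WT) and 19.5 CPM (cKO), log2 ratio 0.59 (0.32 to 0.86), and it was 0.75 higher in the other gated cells as well. By role, the median was 0.00084 for 18 mitotic kinases, phosphatases and cyclins, 0.0037 for 23 passenger complex and kinetochore genes, -0.03 for 21 kinesins and spindle genes, -0.03 for 14 condensin and cohesin genes and -0.09 for 12 genes of anaphase. The 10 genes of the list named for cytokinesis were all lower in cKO, by a median of -0.05. But 5 of them, Plk4, Kif20a, Cdca3, Prc1 and Ect2, were above 0 under both other scalings. Anln had 101 and 84.3 CPM, log2 ratio -0.26 (-0.37 to -0.15). Plk4, the kinase of centriole duplication, which was counted in this list, had 45.9 and 45.8 CPM.

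Replication genes were slightly higher in cKO mitotic cells. Of 56 measured genes, 46 were higher, where 43.8% of all measured genes were, and the median log2 ratio was 0.16. Of the 56, 0 reached 1.5-fold, beside 2.89% of all measured genes. Prim1, the catalytic subunit of DNA primase, stood at 34.2 CPM (WT) and 43.2 CPM (cKO), log2 ratio 0.34 (0.17 to 0.51), and Pole, the catalytic subunit of polymerase epsilon, went furthest the other way, at 33.1 and 26.2 CPM, -0.34 (-0.53 to -0.14). The helicase subunits Mcm2 and Mcm4 stood at 41.2 and 48.8 CPM and at 49.0 and 59.3 CPM. In the other gated cells the median was 0.11. In cells assigned male it was 0.06 and in cells assigned female 0.37. Of 24 checkpoint and repair genes 20 were higher, beside the same 43.8%, with a median of 0.11, and of 0.12 in the other gated cells. Timeless, which stabilises replication forks, was the furthest, at 13.9 and 19.7 CPM, log2 ratio 0.50 (0.24 to 0.77).

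Ribosome biogenesis genes were higher in cKO mitotic cells in 24 of 25 cases, beside 43.8% of all measured genes, by a median of 0.17. In the other gated cells the median was 0.02. Npm1, the nucleolar chaperone nucleophosmin, stood at 1144 CPM (WT) and 1448 CPM (cKO), 0.34 (0.31 to 0.37). Srm, spermidine synthase, stood at 44.5 and 59.6 CPM, 0.42 (0.27 to 0.57), and Myc at 55.8 and 56.2 CPM. Ccnd1, the G1 cyclin D1, stood at 183 and 245 CPM, 0.42 (0.35 to 0.49), beside 0.05 in the other gated cells. Over 16 G1 cyclins and CDK inhibitors the median was -0.04. Variation among mice was not measured, so it cannot be told apart from these differences.

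**Figure D5:**
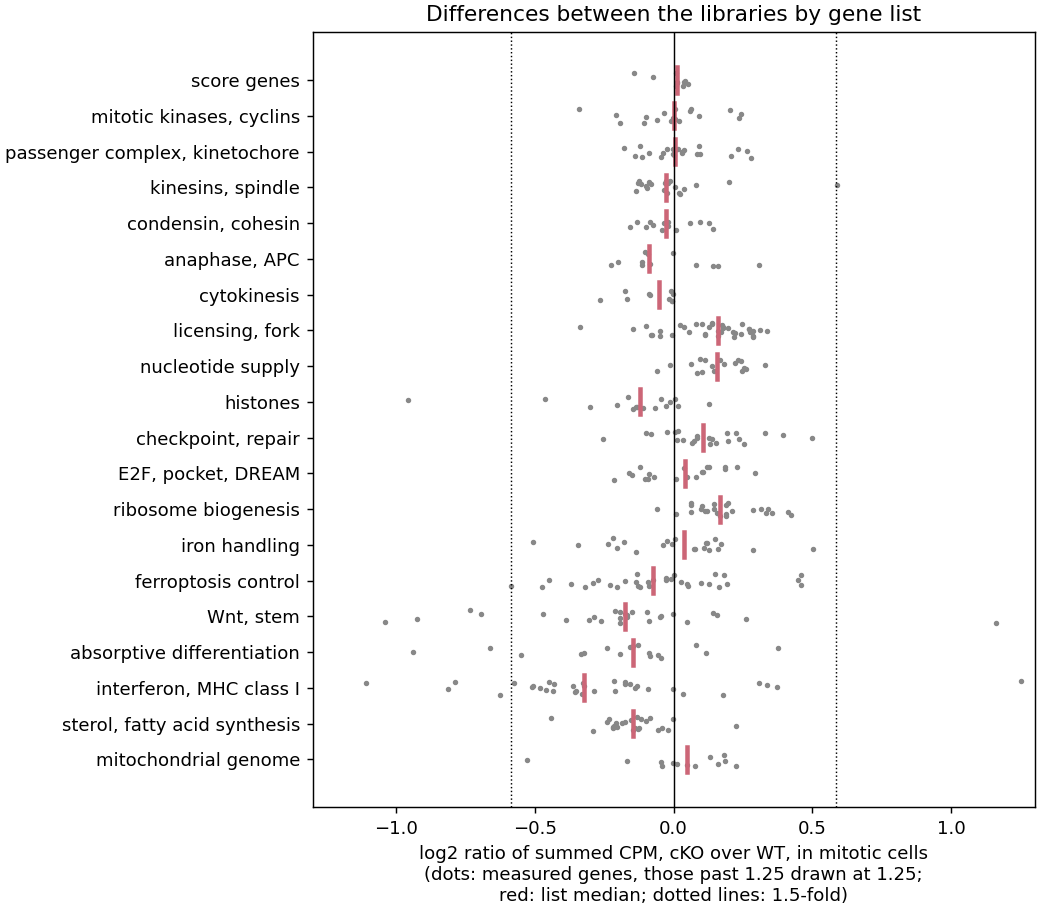
Log2 ratio of summed CPM, cKO over WT, in mitotic cells (horizontal axis) for the measured genes of 20 lists (dots), with the median of each list in red and 1.5-fold marked by dotted lines. The mitotic lists lie around 0, replication and ribosome biogenesis lie near 0.16 and 0.17, and interferon and Wnt genes lie at -0.32 and -0.18. 1 gene, Cxcl9, lies past the axis and is drawn at its limit.

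E2f4 and Tfrc, which the title of the study names, and the measured iron, ferroptosis, E2F and DREAM genes differed by less than 1.5-fold in mitotic cells. Of all measured genes, 2.89% reached that size. E2f4 stood at 34.5 CPM (WT) and 37.6 CPM (cKO), log2 ratio 0.13 (-0.05 to 0.30). Of 20 E2F, pocket protein and DREAM genes 12 were higher, where 43.8% of all measured genes were, with a median of 0.04. They ranged from E2f3 at -0.21 (-0.33 to -0.10) to Lin9, a DREAM core subunit, at 0.29 (0.11 to 0.47). Tfrc, the transferrin receptor that imports iron, stood at 158 and 173 CPM, 0.13 (0.05 to 0.21), and at 97.6 and 97.3 CPM in the other gated cells. Thus Tfrc was higher in mitotic than in other gated cells by 0.70 in WT and 0.83 in cKO. Of 22 measured iron handling genes 12 were higher, beside the same 43.8%, with a median of 0.04. Slc40a1, the iron exporter ferroportin, stood at 16.6 and 23.5 CPM, 0.50 (0.26 to 0.75), and Slc39a8, a zinc and iron importer, at 36.0 and 25.3 CPM, -0.51 (-0.70 to -0.31). Of 33 measured ferroptosis genes 13 were higher, near the same 43.8%, with a median of -0.08. Gpx4, which reduces lipid peroxides, stood at 223 and 209.7 CPM, -0.09 (-0.16 to -0.02). Slc7a11, the cystine importer, stood at 27.9 and 38.4 CPM, 0.46 (0.28 to 0.65), with 0.64 in the other gated cells. Cbs, an enzyme of cysteine synthesis, went the other way at 14.1 and 9.43 CPM, -0.58 (-0.91 to -0.27).

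The cKO mitotic cells had lower levels of most interferon and antigen presentation genes. Of 34 measured interferon and MHC class I genes 28 were lower, where 56.2% of all measured genes were, with a median of -0.32. The median was -0.35 in the other gated cells and -0.65 in mitotic cells assigned female. H2-K1, a class I heavy chain, stood at 561 CPM (WT) and 408 CPM (cKO), -0.46 (-0.51 to -0.41), and B2m, its light chain, at 483 and 358 CPM, -0.43 (-0.49 to -0.38). Cxcl9, a chemokine that attracts T cells, went the other way at 4.29 and 52.3 CPM, but 1 cell held 66.3% of its cKO UMIs and 5.88% of cKO cells had any. The 5 measured MHC class II genes were lower, with a median of -0.48, beside -0.33 in the other gated cells. Cd74, the invariant chain, stood at 198 and 119 CPM. In cells assigned female the class II median was 0.03 and with each cell weighted equally 0.15, so its direction did not hold.

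Wnt and stem cell genes were lower in 22 of 27 cases, beside 56.2% of all genes, with a median of -0.18, beside -0.14 in the other gated cells. Apcdd1, an inhibitor of Wnt signalling, stood at 71.3 CPM (WT) and 34.7 CPM (cKO), -1.04 (-1.20 to -0.89), and at 141.9 and 103 CPM in other gated cells. In mitotic cells assigned male and female its ratio was -0.71 and -2.12. Dkk2, a secreted Wnt antagonist, stood at 140.5 and 84.5 CPM, and Hes1, a target of Notch, at 475 and 294 CPM. Onecut2, a transcription factor, was the exception at 60.1 and 135 CPM, 1.16 (1.05 to 1.28), with 51.9 and 117 CPM in the other gated cells. In cells assigned female the median of the list was -1.02 and in cells assigned male -0.09. Genes of sterol and fatty acid synthesis were lower in 24 of 25 cases, against the same 56.2%, by a median of -0.15. That median was -0.27 in the other gated cells and 0.32 in mitotic cells assigned female. Hmgcs1, an early enzyme of the pathway, stood at 229.9 and 196 CPM, -0.23 (-0.31 to -0.16).

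Among all genes, those named by size with the same direction in cells assigned male and female included, on the lower side in cKO, Mtch2, Clstn2, Fst, Cxcl10, Reg3b, Apcdd1, Hist1h2ap, Rnf32, Mt3, Itln1 and H2-Q7. Clstn2, a calsyntenin of the cell surface, stood at 99.0 CPM (WT) and 28.8 CPM (cKO), log2 ratio -1.78 (-1.94 to -1.63), with UMIs in 34.9% and 18.6% of mitotic cells. The ratio of Clstn2 was -1.24 in cells assigned male and -4.94 in cells assigned female. The other gated cells had nearly the same difference, with 127 and 37.6 CPM of Clstn2, log2 ratio -1.76. Fst, follistatin, which binds activins, stood at 106 and 46.4 CPM, -1.19 (-1.32 to -1.06), but at 107 and 97.3 CPM in the other gated cells. Cxcl10, an interferon-induced chemokine, stood at 103 and 47.9 CPM, and Mt3, a metallothionein, at 230.2 and 127 CPM. In cells assigned male and female the log2 ratios were -0.72 and -1.83 for Cxcl10 and -0.71 and -2.89 for Mt3. In the other gated cells they were -0.58 for Cxcl10 and -0.75 for Mt3. Hist1h2ap, an H2A histone gene with near-identical copies and therefore uncertain, stood at 101 and 52.1 CPM. Its levels in the other gated cells were 9.41 and 3.72 CPM. Reg3b, an antimicrobial lectin, stood at 240.02 and 113 CPM, but 1 cell held 49.2% of its UMIs in WT and 1 cell 74.5% in cKO, and the other gated cells had 46.5 and 96.1 CPM. Its log2 ratio lay between -3.96 and -0.30 over the alternatives.

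On the higher side were Retnlb, Krt14, Kcnq1ot1, Ccl6, Muc2, Gna14, Lrg1, Ybx3, Wfdc18, Smco4, Khdc1a and Ppp2cb. Several of these rested on few cells. Retnlb, a goblet cell protein, had 2.55 CPM (WT) and 119.8 CPM (cKO), with 81.8% of the cKO UMIs in 1 cell. The other gated cells had 7.33 and 10.6 CPM of Retnlb, and 256 and 188 CPM of Muc2. Muc2, the main mucin, had 185 and 309 CPM with 45.2% and 50.3% in 1 cell, and a mean over cells of 208 and 172 CPM, so its direction depends on the weighting of cells. Ccl6, a chemokine of myeloid cells, had 40.6 and 72.3 CPM, with a mean over cells of 71.0 and 45.5 CPM, the opposite direction, as in the other gated cells with 103 and 31.8 CPM. Ybx3, a cold-shock protein that binds nucleic acids, stood at 208 and 309 CPM, 0.57 (0.50 to 0.64), with UMIs in 78.0% of WT and 90.05% of cKO cells. It was also higher in the other gated cells of cKO, at 137 and 174 CPM, 0.35. Kcnq1ot1, a long noncoding RNA that overlaps Kcnq1 on the opposite strand, stood at 34.2 and 72.8 CPM, 1.09 (0.937 to 1.245), and at 35.5 and 70.8 CPM in the other gated cells. With cells weighted equally its ratio was 0.43. The sources used here do not say whether counting used strand, and whether reads of Kcnq1 were counted as Kcnq1ot1 was not tested. Krt14, a keratin of squamous epithelium, stood at 19.4 and 92.0 CPM, 2.25 (2.06 to 2.44), with UMIs in 15.8% of WT and 42.1% of cKO cells, and 1 cell held 36.7% and 29.5% of them. The log2 ratio of Krt14 was 1.23 at a score of 4 CP10k, 1.68 at an epithelial sum of 16 CP10k and 4.80 in cells assigned female. In the other gated cells Krt14 stood at 30.8 and 82.9 CPM, 1.43. The 6 squamous markers summed to 54.7 and 193 CPM in mitotic cells, 76.1 and 209 CPM in other gated cells and 5.35 and 291 CPM in Ptprc-positive cells, and their part in the Krt14 difference was not tested.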

How the data were processed

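The deposited counts are UMIs per gene and barcode, 1 library per genotype, and per the file headers come from Cell Ranger 7.2.0. Seurat 3.0 and mm10 are named as well, per the submitters' processing notes. No source used here states a filter on cells by the authors. The WT matrix held 116066712 UMIs and the cKO matrix 97364087, over 32285 genes. UMIs were summed over the cells of a library and scaled to 1000000 (CPM), and 0.5 counts were added to each sum before a log2 ratio. Intervals are exact (Poisson, conditional binomial, Clopper-Pearson). Measured genes had 10 CPM or more in WT or in cKO, and 1.5-fold was the threshold of size. The intervals were tested on simulated Poisson counts, which lack the concentration of UMIs in single cells that some genes show here. No count model was fitted, since groups held 1 library each.

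The members and all 38 gene lists were chosen with earlier results of these data known. Named genes between libraries reached 50 CPM in WT or cKO and had an interval without 0, the same direction in cells assigned male and female, and at least 20% of the level in Ptprc-positive cells. Genes of mitochondria, ribosomes, haemoglobin, immune receptors and sex, and unnamed models, were left out, and the 12 largest each way were named. Against other gated cells, the 15 largest each way by the smaller ratio of the libraries were named. A few genes of these lists are not reported here. Cells were assigned male with UMIs of Y-linked genes and none of Xist, and female the other way round. Scrublet (scanpy 1.11.5) marked 714 WT and 362 cKO barcodes, and none were removed in the values above. Alternatives were other score, depth, mitochondrial, epithelial and expression limits, marked doublets removed, each sex alone, equal weight of cells and other scalings. A minimum of 40000 UMIs, and leaving out of each gene the cell with most of its UMIs, were chosen after seeing the data. A list median was called where it exceeded the median half-width of its members' intervals, and only called medians could count as reversed or as opposite in the sexes. Both rules were set after the outcomes of simpler ones had been seen, and the closing section gives what the simpler ones would add. Motifs were searched in RefSeq promoters, matched by symbol.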

Additional observations from a re-analysis of the deposited data

Results flagged for a closer look

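In mitotic cells, 7 lists had medians on opposite sides of 0 in cells assigned male (141 WT, 125 cKO) and in cells assigned female (107 WT, 28 cKO). The difference between the sexes was not tested. In cells assigned male and female, in that order, the median log2 ratio of cKO over WT was -0.27 and 0.32 for sterol synthesis, -1.14 and 2.78 for secretory lineage genes, -0.12 and 0.28 for absorptive genes, -0.032 and 0.17 for the mitochondrial genome, 0.15 and -0.29 for p53 target genes, -0.10 and 0.55 for regenerative and fetal genes, and 0.28 and -0.47 for immediate early and heat shock genes. The female values rest on 28 cKO cells. The limit each median had to pass, the median half-width of its members' intervals, was chosen after seeing the data. An earlier limit of 0.1 on both sides gave 8 lists. It held histone genes (-0.10 and 0.11) and G1 cyclins and CDK inhibitors (-0.13 and 0.18), which the later limit left out, and did not hold the mitochondrial genome.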

How the results depend on the processing

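No paired analysis was possible because each genotype has 1 library. The limits of these data are the single library per genotype, the deeper cKO cells, the unequal sexes and the 28 female cKO cells. The G2 and mitosis, iron handling and ferroptosis medians moved by less than the median half-width of their members' intervals under each alternative run. The share of mitotic cells in WT and cKO was 20.2% and 18.1% at a score of 4 CP10k, 6.68% and 7.03% at 16 CP10k, 16.9% and 18.1% at 40000 UMIs or more, and 9.59% in cKO cells assigned female. The log2 ratio of Mtch2 was -2.41 in cells assigned male, -1.74 in cells assigned female and -1.90 with cells weighted equally. In cells assigned female the median was 0.37 for replication genes and 0.36 for E2F and DREAM genes.

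The numbers of genes 1.5-fold higher and lower in cKO, 85 and 188, became 210 and 455 in cells assigned male, 1167 and 1194 in cells assigned female, 205 and 566 with cells weighted equally, 19 and 40 at a minimum of 50 CPM, and 3273 and 4166 with no minimum. At a score of 16 CP10k 155 were higher. For mitotic against other gated cells, 913 higher and 673 lower became 351 and 254 at 50 CPM, and 2305 and 2570 with no minimum. Fewer or more genes enter at other minimums, and the other causes were not tested.

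Directions reversed as follows. In cells assigned female the median was 0.28 for absorptive, 0.11 for histone, 0.027 for MHC class II and 0.32 for sterol genes. In cells assigned male it was -1.14 for secretory genes and -0.032 for the mitochondrial genome, which was -0.030 at a score of 16 CP10k. With cells weighted equally it was 0.15 for MHC class II and -0.59 for secretory genes, and the log2 ratio was -0.64 for Ccl6 and -0.28 for Muc2.

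Medians whose reported value did not exceed the median half-width of their members' intervals were not counted as reversed, whatever their value under an alternative. That half-width is the counting error of a typical single gene and not of a median. The rule was chosen after seeing the data. Under a rule of any sign change, the G2 and mitosis median would also reverse: it was 0.075 at a score of 4 CP10k, 0.0024 at a mitochondrial limit of 10%, 0.013 with cells weighted equally, and 0.0088 and 0.011 under the 2 other scalings. So would the E2F and DREAM median (-0.027 in cells assigned male, -0.056 with cells weighted equally), the iron median (-0.023 male, -0.082 female) and the ferroptosis median (0.0034 with cells weighted equally). The G1 cyclin, p53, regenerative, immediate early and mitochondrial outer membrane medians also changed sign in at least 1 alternative.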

Other observations

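Secretory lineage genes in mitotic cells were carried by few cells. Of 14 measured genes, 8 were higher and 6 lower in cKO, where 43.8% of all measured genes were higher. They ranged from Mptx1 with 15.4 CPM (WT) and 1.23 CPM (cKO) to Retnlb with 2.55 and 119.8 CPM. In WT 1 cell held 87.3% of the UMIs of Zg16, a goblet cell lectin, and 86.9% of those of Mptx1. The p53 target genes had a median log2 ratio of 0.02 over 21 genes, 11 higher and 10 lower, beside the same 43.8% higher. Cdkn1a, the CDK inhibitor p21, stood at 252 and 235 CPM. Of 31 measured genes of the mitochondrial outer membrane and dynamics, 21 were higher in cKO, beside the same 43.8%, with a median of 0.03. Mtch2 was the 1 gene past 1.5-fold, which 2.89% of all measured genes reached. Mtch1, the paralogue of Mtch2, stood at 137 and 136 CPM. Haemoglobin and other erythroid markers summed to 71.9 and 22.3 CPM in mitotic cells but to 239 and 530 CPM in the other gated cells.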
